A study of Homo sapiens with 18 samples.

Results

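The genes described here are the small-subunit mitochondrial ribosomal protein genes, taken as the protein-coding genes whose symbol is MRPS followed by a number and at most 1 letter. There were 28 of them among 19974 protein-coding genes on chromosomes 1 to 22 and X (RefSeq, GRCh38.p14). MAX, the DNA-binding partner of MYC, was mapped by chromatin immunoprecipitation and sequencing in U2OS cells, a human osteosarcoma line. The endogenous MYC gene was knocked out in every group, controls included, and MYC was supplied from a Tet-On construct as the 3A mutant, the 7A mutant or the wild type (WT). For each form, cells had doxycycline (Dox) at 1 µg/ml over 24 h, or PBS and no Dox, and mouse NIH3T3 cells were mixed in at 10% as a reference. Libraries of MAX immunoprecipitates number 12 by the labels, with 2 replicates for each form with and without Dox, beside 6 inputs. They do not say what 3A and 7A change in MYC, or whether each line is a single clone.

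The data analysed here are 3 peak lists, 1 for each MYC form, with 27294 peaks for 3A, 25159 for 7A and 34622 for WT. No list separates Dox from PBS or replicate from replicate, and library depth is not given in them. Every value below therefore describes a single list and has no replicate check, and no difference between MYC forms was tested. A gene counted as having a peak where a summit lay inside it or within 2500 bp of an outer end. Peak strength is the authors' fold enrichment, a linear ratio at the summit over a control that the sources used here do not name. The list names join each MYC form with a plus and with a minus sign, and what these stand for is not given. Were the minus sign the library without Dox, used as control, the ratio and its rank would compare Dox with no Dox and not give binding as such. Fold enrichment is given with its percentile, which is the share of peaks in the same list with a lower fold enrichment, so that 100 marks the strongest end of a list.

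The mitochondrial ribosome translates the messenger RNAs that mitochondria transcribe from their own genome, all of which encode subunits of the respiratory chain and ATP synthase. Its proteins are encoded in the nucleus, made in the cytosol and imported, and the small subunit holds the messenger RNA and decodes it. MYC binds DNA as a dimer with MAX at E-boxes, whose canonical form is CACGTG, and genes of ribosomes and mitochondria are among its known targets. By their systematic names, 16 of the 28 members encode proteins also found in bacterial ribosomes and 10 encode proteins specific to mitochondria. The remaining 2, MRPS30 (mL65) and MRPS18A (mL66), are placed in the large subunit by the current nomenclature despite their symbols. The gene table lists 9 members under the name COXPD, for combined oxidative phosphorylation deficiency, an inherited failure of mitochondrial translation.

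The start windows below were chosen to show the E-boxes of the family and the starts of its strongest and weakest peaks. Not all of them hold a summit: the strongest summits of MRPS22, of the second MRPS33 window and of the second MRPS2 window lie outside the bases shown, as does the WT summit of MRPS2 for both its windows. Each runs from 250 bases before to 50 after an annotated start (RefSeq, GRCh38.p14), 5′ to 3′ on the strand of the gene. Shown first are windows with an E-box: the strongest WT peak of the family (MRPS25), the members with CACGTG (MRPS33, MRPS18C and MRPS2), and MRPS15, which was added after its summit position had been seen. Capitals mark CACGTG and the E-box variant CACGCG, on either strand.
MRPS25 (chr3:15065266-15065565, minus strand): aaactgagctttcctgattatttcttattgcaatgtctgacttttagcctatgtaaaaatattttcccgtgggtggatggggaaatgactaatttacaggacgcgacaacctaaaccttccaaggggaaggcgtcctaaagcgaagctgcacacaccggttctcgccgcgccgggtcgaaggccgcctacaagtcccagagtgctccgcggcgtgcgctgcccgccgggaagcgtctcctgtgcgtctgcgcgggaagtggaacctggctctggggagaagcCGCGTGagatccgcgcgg
MRPS33 (chr7:141014903-141015202, minus strand): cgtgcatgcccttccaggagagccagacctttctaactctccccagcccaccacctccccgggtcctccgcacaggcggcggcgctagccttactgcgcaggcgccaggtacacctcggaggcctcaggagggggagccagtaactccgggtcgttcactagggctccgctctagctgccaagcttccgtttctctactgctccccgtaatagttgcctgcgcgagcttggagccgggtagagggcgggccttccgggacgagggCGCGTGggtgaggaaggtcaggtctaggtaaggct
MRPS33 (chr7:141014630-141014929, minus strand): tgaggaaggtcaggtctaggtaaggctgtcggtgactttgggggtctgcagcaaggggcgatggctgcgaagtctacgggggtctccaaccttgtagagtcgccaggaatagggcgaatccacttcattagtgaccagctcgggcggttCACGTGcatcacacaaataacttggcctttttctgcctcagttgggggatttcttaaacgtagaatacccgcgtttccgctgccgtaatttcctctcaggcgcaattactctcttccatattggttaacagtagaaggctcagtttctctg
MRPS15 (chr1:36464335-36464634, minus strand): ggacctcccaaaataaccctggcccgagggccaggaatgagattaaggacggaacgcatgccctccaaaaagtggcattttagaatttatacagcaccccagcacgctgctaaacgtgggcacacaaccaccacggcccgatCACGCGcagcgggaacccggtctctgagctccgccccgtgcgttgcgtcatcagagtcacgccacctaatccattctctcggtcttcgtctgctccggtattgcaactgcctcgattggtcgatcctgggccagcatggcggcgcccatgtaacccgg
MRPS18C (chr4:83455808-83456107, plus strand): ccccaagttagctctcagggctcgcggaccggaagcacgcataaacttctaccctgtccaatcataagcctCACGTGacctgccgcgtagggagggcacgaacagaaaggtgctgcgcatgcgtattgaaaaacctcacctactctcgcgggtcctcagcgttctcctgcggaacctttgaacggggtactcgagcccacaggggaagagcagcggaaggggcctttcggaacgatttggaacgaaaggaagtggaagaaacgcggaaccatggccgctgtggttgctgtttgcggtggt
MRPS2 (chr9:135500432-135500731, plus strand): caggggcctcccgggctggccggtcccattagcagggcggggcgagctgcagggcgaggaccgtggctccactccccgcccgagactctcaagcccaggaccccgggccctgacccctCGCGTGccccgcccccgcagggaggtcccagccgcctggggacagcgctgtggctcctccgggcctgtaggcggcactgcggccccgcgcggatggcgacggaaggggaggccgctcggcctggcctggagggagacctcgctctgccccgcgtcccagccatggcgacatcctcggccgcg
MRPS2 (chr9:135499715-135500014, plus strand): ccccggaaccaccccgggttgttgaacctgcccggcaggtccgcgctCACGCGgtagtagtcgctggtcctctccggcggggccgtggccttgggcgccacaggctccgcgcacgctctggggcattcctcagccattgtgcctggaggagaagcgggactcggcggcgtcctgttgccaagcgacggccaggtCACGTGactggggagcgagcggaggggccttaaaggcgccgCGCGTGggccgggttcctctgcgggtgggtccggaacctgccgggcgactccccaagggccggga

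Windows without CACGTG or CACGCG are shown for MRPS26, which had the strongest WT peak after that of MRPS25, and for MRPS18A and MRPS22, whose WT peaks were the weakest. Capitals mark CCGGAAG, the core bound by ETS factors such as GABPA, and ATGGCGG, the core bound by YY1, on either strand.
MRPS26 (chr20:3045802-3046101, plus strand): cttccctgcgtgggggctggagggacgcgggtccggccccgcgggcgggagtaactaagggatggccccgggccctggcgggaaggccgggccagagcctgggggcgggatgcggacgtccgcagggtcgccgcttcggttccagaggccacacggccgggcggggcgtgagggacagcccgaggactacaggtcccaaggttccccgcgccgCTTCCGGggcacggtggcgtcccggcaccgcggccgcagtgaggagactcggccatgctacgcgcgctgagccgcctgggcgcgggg
MRPS18A (chr6:43687742-43688041, minus strand): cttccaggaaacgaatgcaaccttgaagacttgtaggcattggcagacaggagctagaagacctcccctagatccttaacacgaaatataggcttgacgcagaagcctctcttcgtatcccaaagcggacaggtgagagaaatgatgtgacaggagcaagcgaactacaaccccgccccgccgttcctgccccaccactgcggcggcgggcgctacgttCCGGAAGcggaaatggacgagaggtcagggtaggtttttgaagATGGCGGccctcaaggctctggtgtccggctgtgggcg
MRPS22 (chr3:139343744-139344043, plus strand): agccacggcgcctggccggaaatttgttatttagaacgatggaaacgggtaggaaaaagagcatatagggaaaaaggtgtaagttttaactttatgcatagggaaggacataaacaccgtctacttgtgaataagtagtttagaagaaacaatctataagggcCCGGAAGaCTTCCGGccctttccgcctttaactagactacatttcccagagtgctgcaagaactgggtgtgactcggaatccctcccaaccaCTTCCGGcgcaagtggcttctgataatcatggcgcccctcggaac

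MAX peaks lay at nearly all members, and at the same members in every list. A peak was present at 26 of 28 members (92.9%) in the 3A list, in the 7A list and in the WT list. By the same rule 67.7% of all protein-coding genes had a peak in the 3A list, 66.7% in the 7A list, 70.8% in the WT list and 65.7% in all 3. Counting only summits within 1000 bp of an outer gene end, 26 members had a peak in 3A, 26 in 7A and 25 in WT, beside 55.5%, 54.7% and 57.4% of all genes. The strongest WT peak of each of the 26 members shared at least 1 bp with a 3A peak and with a 7A peak, beside 91.2% and 89.6% of all genes with a WT peak and 88.4% for both mutants. The farthest summits that the rule took were those beside MRPS16, 1498 bp outside the gene in 3A, 1502 bp in 7A and 1479 bp in WT. The nearest summits left out were those beyond MRPS9, 3106 bp away in 3A, 3091 bp in 7A and 3331 bp in WT, with fold enrichments of 9.20, 7.88 and 7.77.

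MRPS18B and MRPS31, both coding for mitochondria-specific proteins, had no peak in any list. MRPS18B lies on chromosome 6 (30617840 to 30626392), and its nearest summit was 2128301 bp away in 3A, 2128307 bp in 7A and 2128312 bp in WT. It stands in a stretch of 5.08 Mb, from 28489539 to 33571357, in which none of the 3 lists holds a summit although 172 protein-coding genes lie within it. Of the 12 summit-free stretches at least that long, no other held more than 49 protein-coding genes. The absence of a peak at MRPS18B thus comes with the absence of peaks over its whole neighbourhood, and why the lists hold none there was not tested. MRPS31 lies on chromosome 13 (40729128 to 40771190), with its nearest summit 18626 bp away in 3A, 18618 bp in 7A and 18627 bp in WT. The summit-free stretch around MRPS31 was 0.123 Mb long, and 5491 such stretches were at least that long. The gene table also lists 3 pseudogene copies of MRPS31 and 2 of MRPS18B, and whether reads were shared among copies was not tested.

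Among all peaks of a list, most members had their peak in the upper part, and this was least so in 7A. The median percentile of the 26 members was 75.5 in 3A, 60.3 in 7A and 82.5 in WT. For all 13113 genes with a peak in the 3 lists the medians were 71.9, 69.0 and 76.8. Ranked instead among the strongest peaks of all genes with a peak, the members' medians were 56.5 in 3A, 40.0 in 7A and 62.7 in WT, so that in 7A the family stood below the middle of such genes. At or above the percentile of 75 stood 13 of 26 members in 3A, 6 in 7A (23.1%) and 17 in WT (65.4%), beside 45.5%, 42.2% and 52.9% of all genes with a peak in the 3 lists. The 9 members listed under COXPD had medians of 77.3 in 3A, 67.1 in 7A and 84.6 in WT. The strongest peaks of the family had a median width of 923.5 bp in 3A, 862.5 bp in 7A and 1082 bp in WT, against 831, 898 and 947 bp for those of all genes with a peak. The member values lay between 13.6 and 98.0 in 3A, 1.07 and 96.6 in 7A, and 6.76 and 96.4 in WT. The ranges of the 3 lists overlap widely, and the lists differ in where the middle of the family stands.

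**Figure D1:**
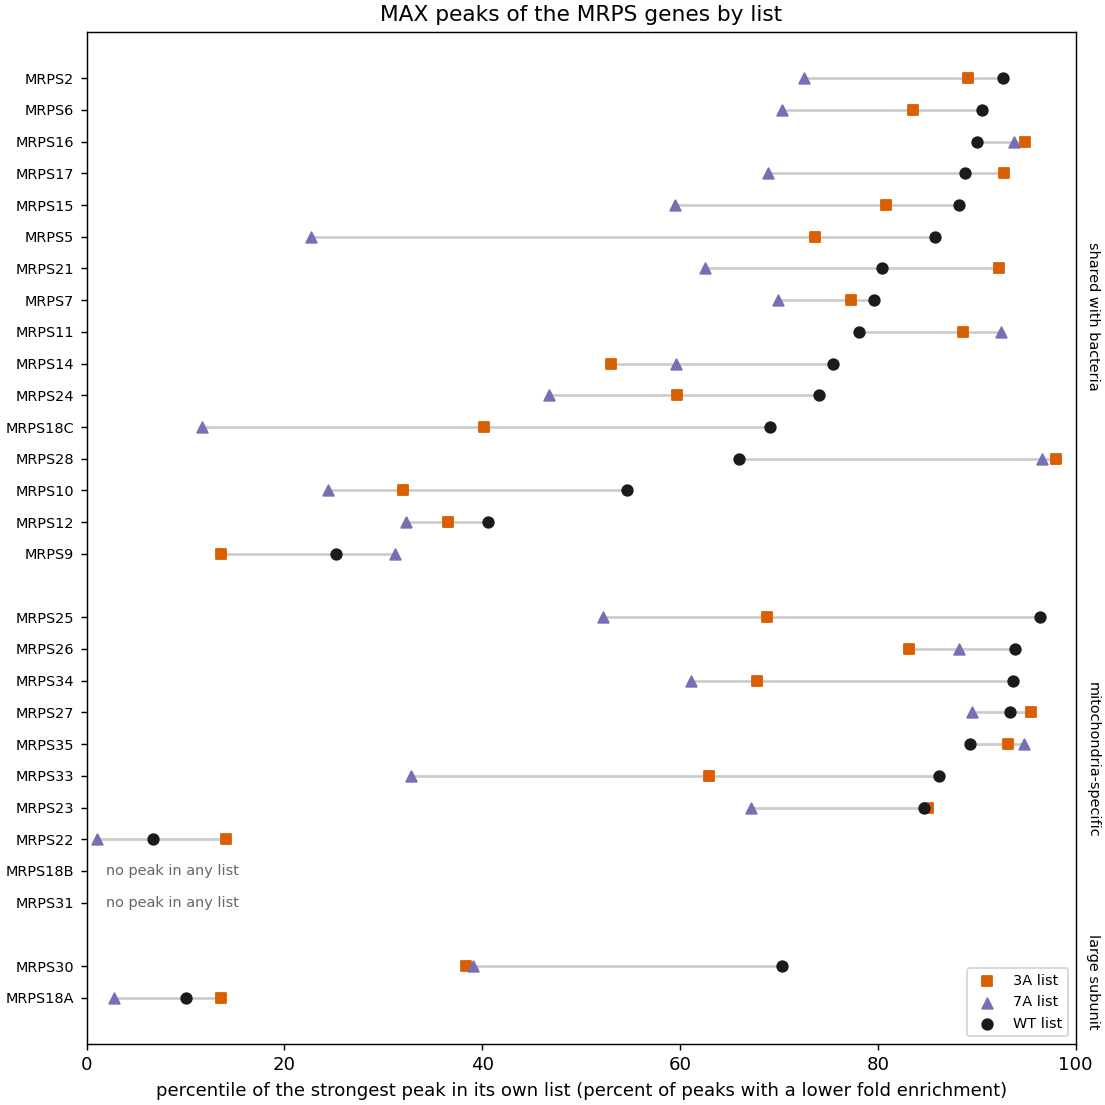
Percentile of the strongest peak of each MRPS gene within the 3A list (squares), the 7A list (triangles) and the WT list (circles), on an axis of 0 to 100, grouped by protein class. The 7A triangle is the lowest symbol for most genes, while MRPS28 stands at 98.0 in 3A and 96.6 in 7A against 66.0 in WT.

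Relative to their place in the WT list, members stood lower in 7A more often than genes at large. The percentile was higher in 7A than in WT at 5 of 26 members (19.2%) and lower at 21, whereas 35.8% of all genes were higher in 7A. The median difference, 7A minus WT, was -17.7 points for the members and -4.68 points for all genes. For 3A the members were close to the rest: 10 of 26 (38.5%) were higher in 3A than in WT, beside 41.3% of all genes, with median differences of -5.47 and -2.63 points. Between the mutants, 20 of 26 members (76.9%) stood higher in 3A than in 7A, beside 54.9% of all genes, and the median differences, 3A minus 7A, were 9.25 and 1.21 points. These comparisons share lists and are not independent of each other. The order 7A below 3A below WT was found at 12 members (46.2%) and at 24.9% of all genes. When the lists were reduced to equal length, 7 of 25 members (28.0%) stood higher in 7A than in WT, while the share of all genes became 52.4%. Ranked by −log10 q, 7 of 26 members stood higher in 3A than in WT and 4 higher in 7A, beside 33.8% and 28.7% of all genes. By −log10 q the median difference, 7A minus WT, was -9.34 points for the members and -5.52 points for all genes, a smaller gap. With lists of equal length it was -11.7 and 0.727 points.

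**Figure D2:**
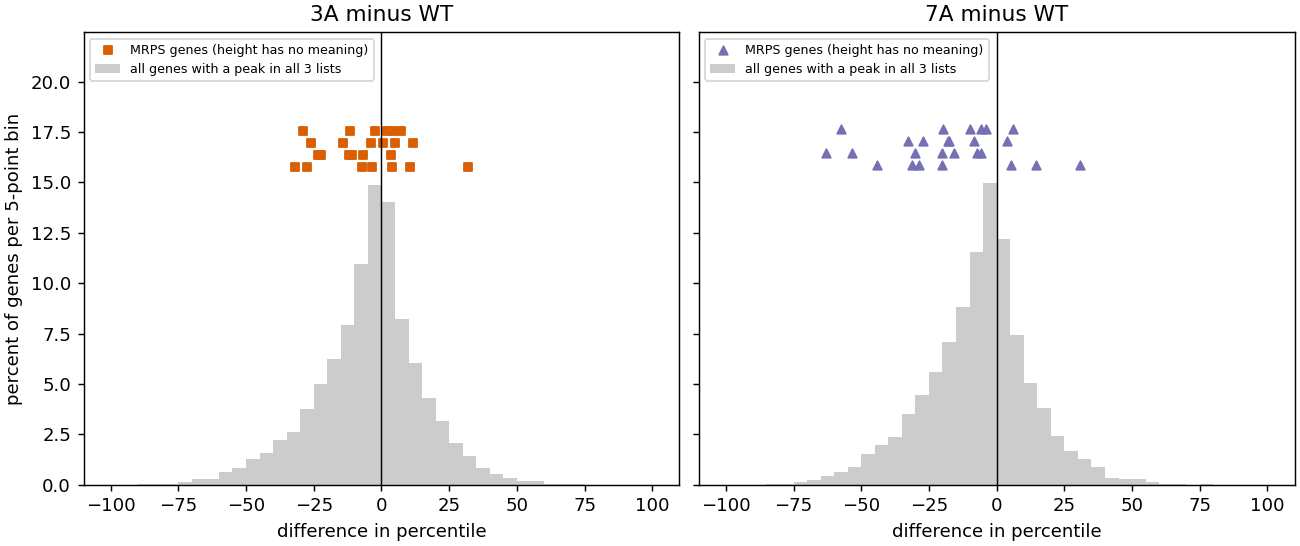
Difference in percentile against WT for 3A (left) and 7A (right): bars give the percent of all 13113 genes with a peak in the 3 lists per bin of 5 points, and symbols above them mark the 26 MRPS genes. The 7A symbols lie mostly left of 0 with a median of -17.7, and the 3A symbols spread on both sides with a median of -5.47.

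Among the proteins shared with bacterial ribosomes, all 16 genes had a peak in every list, with median percentiles of 79.1 in 3A, 61.0 in 7A and 78.9 in WT. MRPS2, which encodes uS2m, had the strongest WT peak of this class. Its fold enrichment was 25.1 in 3A, 16.2 in 7A and 34.8 in WT, at percentiles of 89.1, 72.6 and 92.6. In WT a single peak of 1918 bp covered its start (chromosome 9, 135499596 to 135501513). In 7A the peak spanned 1660 bp, and in 3A the same ground held separate peaks of 990 and 471 bp. MRPS6 stood at 83.5, 70.3 and 90.5, and MRPS17 at 92.8, 68.9 and 88.8, in 3A, 7A and WT. These 3 genes were thus in the upper part of every list and lowest in 7A.

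MRPS5, whose bacterial counterpart helps to keep decoding accurate, showed the widest gap between 7A and WT of all members. Its fold enrichment was 16.3 in 3A, 7.38 in 7A and 25.1 in WT (chromosome 2, 95121299 to 95122224), and its percentiles were 73.6, 22.6 and 85.8. The difference of 7A from WT was -63.2 points by fold enrichment. Ranked by −log10 q instead, MRPS5 stood at 86.5 in 3A, 60.6 in 7A and 92.1 in WT, so that the order was kept while the gap was smaller. MRPS18C, the S18 protein of the decoding subunit, had fold enrichments of 9.61 in 3A, 6.01 in 7A and 15.5 in WT (chromosome 4, 83455339 to 83456100). Its percentiles were 40.1, 11.6 and 69.0, and both mutant lists placed it well below WT. Its peak lies beside the gene HELQ, a DNA helicase gene read in the other direction, and cannot be assigned to either of them. MRPS12, the counterpart of the bacterial S12 protein at the decoding centre, shares its peak with SARS2, the mitochondrial seryl-tRNA synthetase gene. By fold enrichment MRPS12 was in the lower part of every list, at 36.6 in 3A, 32.3 in 7A and 40.5 in WT. By −log10 q it stood at 38.1, 32.5 and 58.3, above the middle in WT. With lists of equal length it stood at 31.3, 32.3 and 21.2, lowest in WT.

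MRPS28 ran the other way. Its peak had a fold enrichment of 47.9 in 3A and 41.3 in 7A, against 14.5 in WT (chromosome 8, 80029648 to 80030591 in WT), at percentiles of 98.0, 96.6 and 66.0. Among the members it held the highest percentile of both mutant lists, while 20 members stood above it in WT. The summit, 23 bp inside the outer end of MRPS28 in WT, is also within 1000 bp of an end of TPD52, with which MRPS28 forms a readthrough gene in the gene table. By −log10 q the percentiles were 98.9 in 3A, 98.9 in 7A and 84.8 in WT. MRPS11, which shares its peak with MRPL46 of the large subunit, was likewise higher in the mutants, at 88.6 in 3A, 92.5 in 7A and 78.1 in WT. MRPS21 stood at 92.2 in 3A, 62.5 in 7A and 80.4 in WT, so that the mutants lay on opposite sides of WT by fold enrichment, but at 85.3, 69.0 and 86.4 by −log10 q, where both were below it. MRPS9 had a low fold enrichment throughout, 6.25 in 3A, 8.39 in 7A and 7.05 in WT, at percentiles of 13.6, 31.1 and 25.2. By −log10 q it stood in the middle of the lists, at 39.3, 57.4 and 53.5.

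The remaining members of this class were spread over the lists. MRPS15 (80.8 in 3A, 59.5 in 7A and 88.2 in WT), MRPS7 (77.3, 69.9 and 79.6), MRPS24 (59.7, 46.7 and 74.1) and MRPS10 (32.0, 24.4 and 54.7) followed the order 7A below 3A below WT. MRPS14 stood at 53.0 in 3A, 59.6 in 7A and 75.4 in WT. MRPS16 stood at 94.9, 93.8 and 90.0, but this strongest peak lay beyond its 3′ end beside DNAJC9, a gene for a chaperone of histones. The peak at the start of MRPS16 itself was at 79.0 in 3A, 69.8 in 7A and 81.8 in WT. The rule gives MRPS16 its neighbour's peak, and its own start peak had the order 7A below 3A below WT.

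The 8 mitochondria-specific genes with a peak were led by MRPS25, which also had the strongest WT peak of the whole family. Its fold enrichment was 14.9 in 3A, 11.4 in 7A and 47.0 in WT (chromosome 3, 15064388 to 15065537), at percentiles of 68.8, 52.2 and 96.4. The peak was 613 bp wide in 3A, 567 bp in 7A and 1150 bp in WT, all around the start of the gene. MRPS34 had fold enrichments of 14.6 in 3A, 13.2 in 7A and 37.2 in WT, at percentiles of 67.8, 61.1 and 93.7. Its WT peak, the widest of the family at 3636 bp (chromosome 16, 1770269 to 1773904), runs over the whole gene. In 3A and 7A the same ground held a peak at the start of MRPS34 and a weaker peak beside NME3, at percentiles of 38.2 in 3A and 18.0 in 7A. MRPS33 stood at 62.9 in 3A, 32.7 in 7A and 86.2 in WT, with fold enrichments of 13.5, 8.61 and 25.5. For these 3 genes WT was high, 3A lower and 7A lowest.

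MRPS26, MRPS27, MRPS35 and MRPS23 stayed in the upper part of each list. MRPS26 had fold enrichments of 20.5 in 3A, 24.6 in 7A and 37.8 in WT, at percentiles of 83.2, 88.2 and 93.9. MRPS35 was at 93.2 in 3A, 94.8 in 7A and 89.3 in WT, and MRPS23 at 85.0, 67.1 and 84.6. MRPS27, which binds mitochondrial RNA, had fold enrichments of 35.9 in 3A, 25.9 in 7A and 36.4 in WT, but the strongest peak was not the same site in each list. In 3A and 7A it lay at the start, with a further peak 11708 and 11686 bp into the gene. In WT the inner peak, 11671 bp into the gene, was the stronger of them, and the start peak had a fold enrichment of 25.8 and a percentile of 86.6. Compared at the start alone, MRPS27 was at 95.5 in 3A, 89.6 in 7A and 86.6 in WT, so that there 7A stood above WT. The summits of these start peaks differ, however: 33 bp after the start in 3A, 37 bp after it in 7A and 413 bp before it in WT.

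MRPS22, in which inherited defects impair mitochondrial translation, had the weakest WT peak of the family. Its fold enrichment was 6.33 in 3A, 3.88 in 7A and 4.71 in WT (chromosome 3, 139343901 to 139344601), at percentiles of 14.1, 1.07 and 6.76. The large-subunit protein gene MRPS18A came next from the bottom in WT, with fold enrichments of 6.26 in 3A, 4.47 in 7A and 5.18 in WT at percentiles of 13.6, 2.72 and 10.1. By −log10 q MRPS18A stood higher, at 36.7, 29.7 and 41.9, while MRPS22 remained at the foot of the lists, at 7.51, 0.962 and 9.10. MRPS30, the other member now placed in the large subunit, stood at 38.4 in 3A, 39.0 in 7A and 70.3 in WT. Its fold enrichments were 9.37, 9.40 and 15.9. Of the 3 S18 paralogues, MRPS18C and MRPS18A had a peak in every list, with MRPS18C above MRPS18A by fold enrichment and by −log10 q, and MRPS18B had none.

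The peaks sat at the starts of the genes. Of the 25 members with a peak and an annotated start, the strongest summit lay within 100 bp of a start at 19 in 3A, 20 in 7A and 16 in WT, beside 32.3%, 32.4% and 28.7% of all such genes. The median distance was 33 bp in 3A, 27 bp in 7A and 35 bp in WT, against 216, 211 and 267 bp over all such genes. In MRPS17 the summits lay 25, 27 and 28 bp after the start in 3A, 7A and WT, and in MRPS35 21, 14 and 13 bp after it. MRPS18A, with a weak peak, had summits 37, 34 and 35 bp before its start, within 3 bp of each other. A summit close to the start was thus found at weak as well as strong peaks. Summits lay farther out at, among others, MRPS6 (348, 378 and 390 bp before the start) and MRPS11 (312, 280 and 353 bp before it). The strongest summit was within 1000 bp of an end of another protein-coding gene at 11 of 26 members in 3A, 11 in 7A and 9 in WT, beside 25.2%, 25.3% and 23.8% of all genes with a peak. In WT these were MRPS6 (SLC5A3), MRPS7 (GGA3), MRPS11 (MRPL46), MRPS12 (SARS2), MRPS16 (DNAJC9), MRPS18C (HELQ), MRPS26 (GNRH2), MRPS28 (TPD52) and MRPS34 (EME2), and the mutants added MRPS2 (PIERCE1) and MRPS27 (PTCD2).

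**Figure D3:**
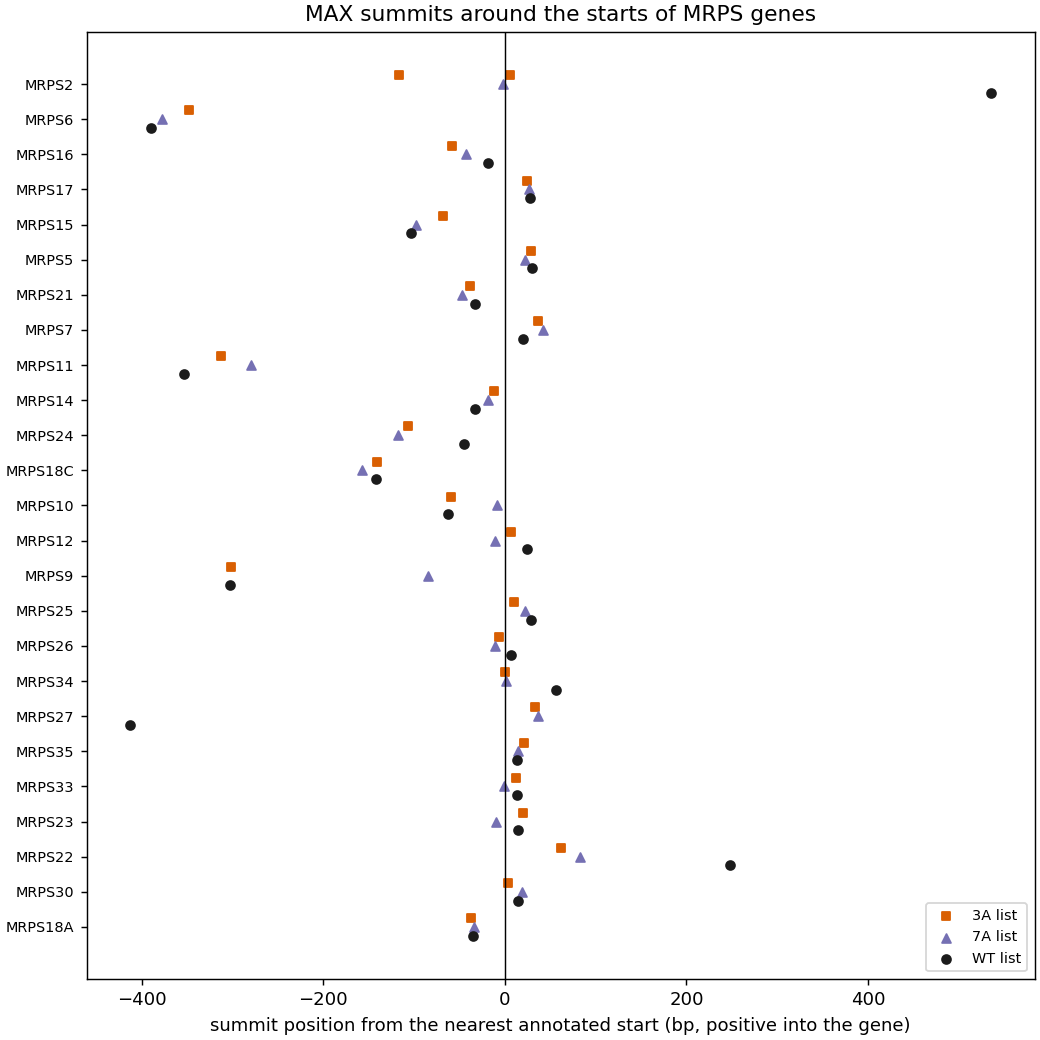
Position of the MAX summits in bp from the nearest annotated start, positive into the gene, for MRPS genes in the 3A (squares), 7A (triangles) and WT (circles) lists. Most symbols fall within 100 bp of 0, and the WT summits of MRPS2 (536 bp) and MRPS27 (413 bp before the start) stand away from those of the mutants.

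The summits of the lists also lay close to each other. A 3A summit lay within 100 bp of 24 of the 26 strongest WT summits, beside 78.3% of all genes with a WT peak, and a 7A summit within 100 bp of 23, beside 76.3%. Both held at 23 members and at 71.6% of all genes with a WT peak. The exceptions were MRPS22 and MRPS2 in both mutants and MRPS9 in 7A. For MRPS27 the WT summit counted was the inner one, not that of its start peak. At MRPS22 the WT summit was 186 bp from that of 3A and 165 bp from that of 7A, and at MRPS2 it was 530 and 538 bp away. At MRPS9 the 7A summit was 218 bp from the WT summit and the 3A summit 1 bp from it.

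E-boxes were no more frequent in the start windows of the family than in those of other genes. Motifs were searched on both strands, and sites that overlapped another motif were kept. Windows were found for 27 of the 28 members and for 15813 protein-coding genes. CACGTG occurred in the windows of 3 of 27 members (11.1%), MRPS2, MRPS18C and MRPS33, beside 10.9% of all genes with a window and 12.4% of those with a WT peak. CACGCG occurred at 4 members (14.8%), MRPS2, MRPS15, MRPS25 and MRPS33, beside 18.1% and 21.9%. The NRF1 core GCATGCGC, named for a regulator of nuclear genes for mitochondria, occurred at 2 members (7.41%), MRPS18B and MRPS18C, beside 4.89% and 5.88%.

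The ETS and YY1 cores were more frequent in the family than among all genes. CCGGAAG was found in the windows of 12 of 27 members (44.4%), beside 16.5% of all genes and 20.2% of those with a WT peak. ATGGCGG was found at 10 of 27 (37.0%), beside 9.15% and 11.3%. Both were present at MRPS10, MRPS18A and MRPS34. These shares describe letters in the windows, with no test, and say nothing of which factor is bound.

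**Figure D4:**
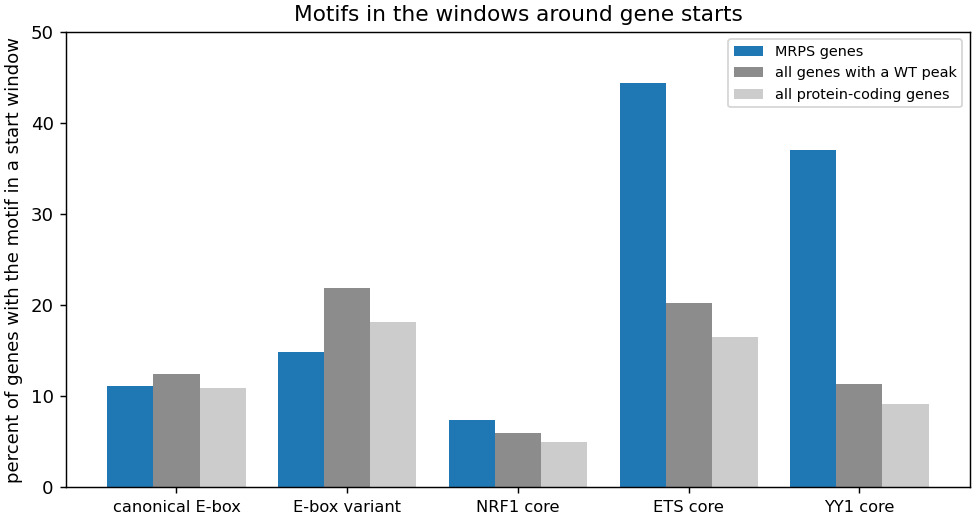
Percent of genes with each motif in a start window, on an axis from 0: MRPS genes (27, left bars), all genes with a WT peak (11511, middle bars) and all protein-coding genes with a window (15813, right bars). The ETS core reaches 44.4% and the YY1 core 37.0% among MRPS genes, while the canonical E-box stands at 11.1% against 10.9% of all genes.

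Where an E-box variant was present, summits lay on or beside it at 3 members. At MRPS25 the CACGCG shown above is 22 bp from the 3A summit, 10 bp from the 7A summit and 3 bp from the WT summit. At MRPS33 the site in the first window is 3, 16 and 2 bp from the summits of 3A, 7A and WT, and at MRPS15 it is 35, 5 and 0 bp from them. At MRPS2 the nearest of 3 such sites was 125 bp from the 7A summit and 663 bp from the WT summit. In 3A that site was 133 bp from the stronger summit, and another was 82 bp from the weaker one. CACGTG was 33, 17 and 32 bp from the summits at MRPS18C, where the NRF1 core was 5, 21 and 6 bp away, and 160, 173 and 159 bp at MRPS33. At MRPS2 it was 60 bp from the weaker of the 3A summits, and 766 and 1304 bp from the summits of 7A and WT. Summits without an E-box could lie as close to other cores: at MRPS18A the ETS core was 6, 3 and 4 bp from them, and at MRPS35 the YY1 core was 3, 0 and 0 bp from them.

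All 5 members with CACGTG or CACGCG in a window had the order 7A below 3A below WT, a split that was made after their percentiles had been seen. Their median percentiles were 68.8 in 3A, 52.2 in 7A and 88.2 in WT, and those of the 20 other members with a window and a peak were 75.5, 61.8 and 80.0. Of these 20, 7 had the same order (35.0%). Bases outside the windows were not searched, and the strongest summits of some of the 20, such as MRPS6 and MRPS11, lay outside them. Across all genes the split made no such difference to the order. It was found at 25.4% of 3394 genes with either motif and at 25.3% of 7315 genes with neither. The medians of all genes did differ, at 80.0 in 3A, 79.7 in 7A and 85.3 in WT with either motif. With neither they were 68.6, 64.1 and 72.7. Genes with a motif thus stood higher in every list, whereas members with one stood lower in both mutant lists.

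The other genes of mitochondrial translation had peaks about as often. Among large-subunit genes 46 of 49 had a peak in 3A, 46 in 7A and 47 in WT, with median percentiles of 74.5, 68.5 and 82.0. Of the 46 with a peak in all lists, 10 stood higher in 7A than in WT, with a median difference of -9.33 points. Higher in 3A than in 7A stood 30 of these 46. MRPL3 and MRPL43 led the large-subunit genes in WT, at 99.8 and 99.1. MRPL23 and MRPL45 had no peak in any list and MRPL35 had one in WT alone. Small-subunit proteins under other symbols had a peak at 3 of 4 genes in every list: PTCD3, at 84.1 in 3A, 80.0 in 7A and 92.2 in WT, AURKAIP1 and CHCHD1. DAP3, which encodes a GTP-binding protein of the small subunit, had none, and the nearest summit was 78159 bp away. All 9 assembly genes had a peak in every list, among them RBFA, a maturation factor (92.4, 94.0 and 99.2), and TFB1M, which methylates the small-subunit RNA (83.0, 70.6 and 91.9). Of these 9, 5 stood higher in 7A than in WT. All 10 translation factors had a peak in every list, and GUF1 and MRRF, a ribosome recycling factor, were the strongest in WT at 96.7 and 96.6. Of these 10, 2 stood higher in 7A than in WT, with a median difference of -25.6 points, and 2 stood higher in 3A, with a median difference of -23.5 points. Cytosolic small-subunit genes had the highest medians of the lists compared, with median percentiles of 94.1 in 3A, 81.2 in 7A and 95.5 in WT and a peak at 29, 28 and 29 of 32 genes. RPSA, which encodes the uS2 protein of the cytosolic small subunit, led them in WT at 99.6. Of the 28 with a peak in all lists, 3 stood higher in 7A than in WT, with a median difference of -8.40 points. Higher in 3A than in 7A stood 25 of these 28. The same held at 3 of 3 small-subunit genes under other symbols, 3 of 9 assembly genes and 6 of 10 translation factors. Standing higher in 3A than in 7A was thus not particular to the MRPS genes. RPS27 had no 7A peak, and RPS9 and RPS18 had none in any list.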

How the data were processed

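MAX was immunoprecipitated from U2OS cells with inducible 3A, 7A or WT MYC. MAX is the target in the labels' antibody field, which was followed, although their protocol text speaks of anti-FLAG. The labels put Dox and PBS libraries in separate groups, with 2 replicates each, but only 1 list of peaks was deposited for each MYC form. Per the submitters' processing notes the tools were MACS2, Bowtie2, Picard, SAMtools and cutadapt, with hg38, hg19 and mm10 as builds; neither roles nor versions stand there. Pooling of replicates or treatments, the control libraries and any scaling by mouse reads are not given in the sources used here.

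The deposited lists lack a header and are laid out as narrowPeak files. Fold enrichment at the summit is a linear ratio computed by the authors. Beside it stands the authors' −log10 q, with lowest values of 5.04 in 3A, 5.69 in 7A and 5.15 in WT, and the deposited score was 10 times that value, rounded down, in 99.8%, 99.6% and 99.6% of peaks. Positions were read as hg38, since the last peak of chromosome 17 (83203378) ends past the hg19 chromosome, and count from 1. Columns of other samples numbered 0.

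Summits were assigned to genes by outer gene ends from RefSeq (GRCh38.p14), and starts and strands came from its start windows. The members and gene lists were chosen with earlier results of these data known. Every member is named, while some genes of the other lists are not reported here. Described in full are members without a peak, the 5 strongest and 3 weakest in WT, and for each mutant the 4 whose percentile differed most from WT in each direction. No sequence was used for MRPS28. With 1 list per MYC form no test, error or interval could be given, and depth is unknown. Gene assignment, percentiles and the motif search were tested on simulated data. Alternatives were other windows, a −log10 q of at least 10, lists of equal length, ranks by −log10 q, among sites common to the 3 lists or among genes, stricter overlap, all peaks of a member and CANNTG. Values were computed in Python 3.11.15 with NumPy 2.4.6, pandas 2.3.3 and SciPy 1.17.1, and drawn with matplotlib 3.10.9.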

Additional observations from a re-analysis of the deposited data

How the results depend on the processing

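No paired analysis was possible because the peak lists carry no replicates, and for the same reason no replicate could be left out. Under other windows, a −log10 q of at least 10 and lists of equal length, between 25 and 26 members had a peak in each list. The number of members higher in 7A than in WT ranged from 4 (ranked by −log10 q) to 7 (lists of equal length), and that of members higher in 3A than in WT from 7 to 12. In every ranking that gave them a value, 18 members were lower and 4 higher in 7A than in WT; of the 9 rankings MRPS2 had a value in 7 and MRPS22 in 8, the others in all. Between 3A and WT 12 members were always lower and 5 always higher. Other windows and a −log10 q of at least 10 changed the percentiles of most members little or not at all, so these rankings are not separate checks. For these counts over all rankings no share of all genes is given here, and they do not set the members apart from other genes. Of all genes, 35.8% stood higher in 7A than in WT in the main ranking. Ranked by −log10 q it was 28.7%, and with lists of equal length 52.4%. For 3A against WT these shares were 41.3%, 33.8% and 52.7%. The median percentile in 7A became 71.7 when peaks were ranked by −log10 q, for which the cause was not tested. Ranking among the strongest peaks of genes, which are fewer and stronger, gave medians of 56.5 in 3A, 40.0 in 7A and 62.7 in WT. With CANNTG, a looser pattern, in place of CACGTG, 19 of 27 members (70.4%) held the motif. This was near the share of all genes with a window, 70.5%, and of those with a WT peak, 67.9%. The other counts stayed within 1.5 times those reported. No replicate spread or library depth is known for any percentile.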
